A study of Mus musculus with 2 samples.

Results

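Genes of the tumour necrosis factor (TNF) superfamily were examined in M-MDSCs, the monocytic myeloid-derived suppressor cells of tumours, taken from mice fed a normal-salt diet (NSD) or a high-salt diet (HSD). The group comprised the ligand genes Tnf, Ltb, Tnfsf9, Tnfsf10, Tnfsf12, Tnfsf13b and Tnfsf14 and the receptor genes Tnfrsf1a, Tnfrsf1b and Fas. A probe was included when its identifier on the array was a RefSeq transcript of one of these 10 genes, which gave 12 of 39429 probes, printed in 30 spots per array. Of the 20653 genes that could be named on the arrays, the family thus made up 10.

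Both groups were female mice of the BABL/c background, as the labels spell it, injected under the left armpit with 1000000 4T1 cells, a mammary carcinoma line. For 16 days the NSD mice ate chow with 0.4% NaCl and drank plain tap water, while the HSD mice ate chow with 4% NaCl and drank water with 1% NaCl. M-MDSCs were then isolated from the tumours by a kit-based magnetic method and pooled per diet at the same cell number from each mouse, and the RNA was hybridised to 1 single-colour Agilent array per diet. The arrays therefore give 1 pooled value per probe and diet, without a spread between mice, so a difference has no replicate check and the effect of diet could not be tested. Values under NSD and under HSD are signals on the respective array, and differences are given as HSD minus NSD on the log2 scale after each array was set to its own 75th percentile, and 1.5-fold was used as the threshold. Behind them stood an error of measurement within an array, taken from probes printed in many spots, which covers neither the mice nor the cell preparations.

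TNF superfamily ligands are made as trimers on the cell surface, from which some are shed, and they bind receptors of a matching family on neighbouring cells. The receptors act through TRAF adaptors on NF-κB and kinase cascades, and those with a death domain, such as Fas and the TNF receptor encoded by Tnfrsf1a, can also start caspase-driven cell death. Myeloid cells are a main source of TNF in inflamed tissue, whereas lymphotoxin β, the product of Ltb, is known mainly from lymphocytes.

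Of the 10 genes, 3 were at least 1.5-fold higher in the HSD group (Tnf, Tnfsf9 and Fas), 2 were at least 1.5-fold lower (Tnfsf10 and Tnfsf14), and 5 lay within 1.5-fold. The background was 9.85% higher and 10.3% lower by this threshold, among the 16332 usable genes, those detected well above background by at least 1 array. At those shares a set of 10 genes would hold about 1 gene in each direction. The median log2 difference was 0.23 over the 10 genes and 0.045 over all usable genes. Nearest to the threshold lay Tnfsf14, 1.55-fold lower and just past it, and Tnfsf13b, 1.27-fold higher and short of it. The split over all genes moved with the scaling, since 48.9% of the genes past 1.5-fold were higher in the HSD group here and 38.5% after cyclic loess between the arrays.

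Counted by probe, 3 of the 12 passed the threshold upward and 3 downward, against 10.2% and 8.91% of the 29628 probes that at least 1 array detected well above background. The extra lower probe was the dimmer probe of Tnfsf12. On both arrays all 12 probes were well above background, none had a saturated or flagged spot, and no value below is a bound unless stated.

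**Figure D1:**
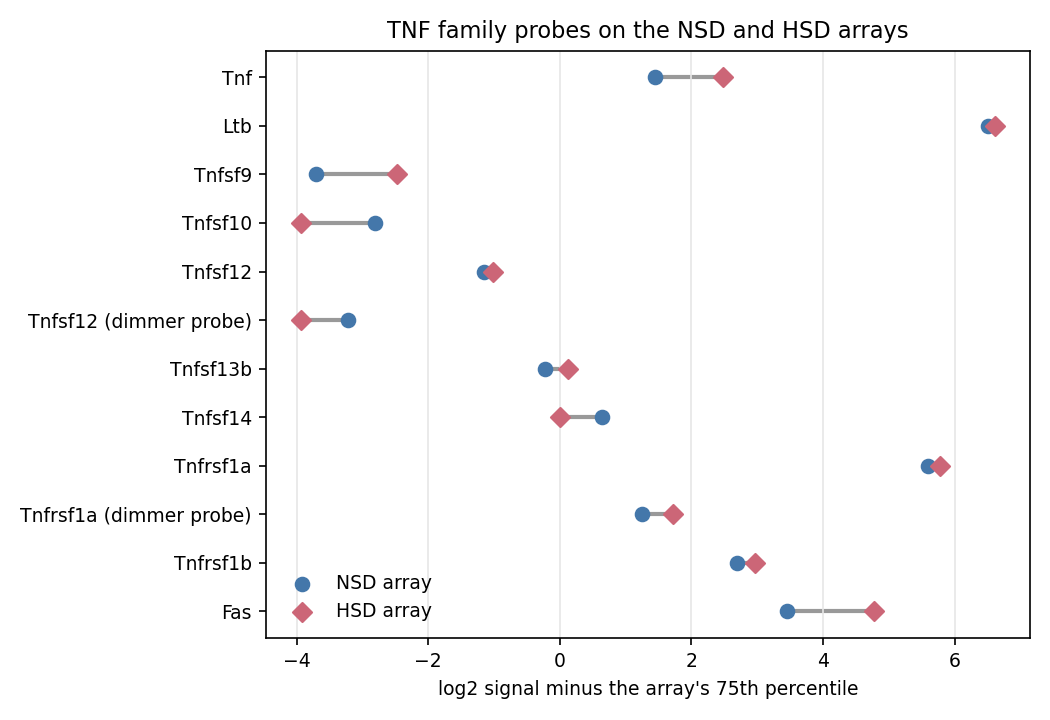
Level of each of the 12 probes on the NSD array (circles) and the HSD array (diamonds), as log2 signal minus the 75th percentile of the array, 1 value per array. The wide gaps to the right are those of Tnf, Tnfsf9 and Fas and the wide gaps to the left those of Tnfsf10, Tnfsf14 and the dimmer Tnfsf12 probe. Horizontal positions of different probes are not comparable, because probes differ in brightness.

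The promoters of Tnf and Fas, higher under HSD, and of Tnfsf10 and Tnfsf14, lower under HSD, are shown so that both sides of the comparison can be read side by side. The RefSeq annotation of GRCm38.p6 gave windows for 8 of the 10 genes, not for Tnfsf9 and Tnfsf12. Each sequence holds the 250 bases before the annotated start, read 5′ to 3′ along the gene. Capitals mark matches, on either strand, to 4 short patterns: an NF-κB pattern of GGG, any 5 bases and CC; TGANTCA for AP-1; TTCNNNGAA, the GAS element bound by STAT factors; and TGGAAA, the core read by NFAT factors including NFAT5.

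Tnf, chr17:35202008-35202257, minus strand: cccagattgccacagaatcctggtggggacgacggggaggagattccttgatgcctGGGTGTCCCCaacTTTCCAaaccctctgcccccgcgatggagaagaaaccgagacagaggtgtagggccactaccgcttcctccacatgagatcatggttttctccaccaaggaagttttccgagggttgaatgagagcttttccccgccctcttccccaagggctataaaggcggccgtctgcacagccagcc

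Fas, chr19:34290409-34290658, plus strand: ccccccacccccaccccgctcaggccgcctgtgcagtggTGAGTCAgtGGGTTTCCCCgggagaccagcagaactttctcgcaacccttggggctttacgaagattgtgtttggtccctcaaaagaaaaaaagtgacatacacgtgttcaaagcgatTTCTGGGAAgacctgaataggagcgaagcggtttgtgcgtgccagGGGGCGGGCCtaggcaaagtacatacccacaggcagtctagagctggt

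Tnfsf10, chr3:27316827-27317076, plus strand: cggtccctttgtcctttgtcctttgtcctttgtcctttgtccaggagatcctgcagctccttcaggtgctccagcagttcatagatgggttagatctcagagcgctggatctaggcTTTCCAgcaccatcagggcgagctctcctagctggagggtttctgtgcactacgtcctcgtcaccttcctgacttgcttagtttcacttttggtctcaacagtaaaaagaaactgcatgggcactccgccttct

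Tnfsf14, chr17:57194182-57194431, minus strand: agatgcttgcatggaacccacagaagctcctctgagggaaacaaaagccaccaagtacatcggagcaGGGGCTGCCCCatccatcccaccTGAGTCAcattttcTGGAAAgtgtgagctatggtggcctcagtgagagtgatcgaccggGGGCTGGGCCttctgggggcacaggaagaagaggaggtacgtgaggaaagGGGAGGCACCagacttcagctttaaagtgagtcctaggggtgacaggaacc

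The Tnf window held 1 match to the NF-κB pattern, 194 bases before the start, and 1 to the NFAT core at 181 bases. The Fas window held 2 matches to the NF-κB pattern, 1 to AP-1 and 1 to GAS. The Tnfsf10 window held an NFAT core alone, and that of Tnfsf14 held 4 NF-κB matches, of which 2 overlap by all but 1 base, with 1 AP-1 site and 1 NFAT core. The patterns are common, since 45.8% of 32851 promoter windows of this length held the NF-κB pattern, 18.6% the NFAT core, 7.02% the GAS element and 6.75% the AP-1 pattern. Matches to the NF-κB pattern were thus present in genes on both sides of the comparison. They were also present in Ltb, Tnfrsf1a and Tnfrsf1b, which lay within 1.5-fold and each held a GAS match too. Of the 4 NF-κB matches in Ltb, those at 40, 39 and 38 bases before the start overlap. The NF-κB matches in Tnfrsf1b, at 77, 76 and 71 bases, overlap as well.

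Tnf encodes TNF-α, the ligand of both TNF receptors and the main product by which activated monocytes and macrophages act through this family. Its probe was printed in 10 spots on each array. The spots ran from 614 to 723 intensity units with a median of 695 on the NSD array, and from 1136 to 1352 with a median of 1322 on the HSD array. No HSD spot overlapped an NSD spot, before or after scaling. The log2 difference was 1.03, or 2.04-fold, against a noise SD of 0.029 for a difference of such spot means. The lowest of the HSD spots, at 2.29 on the scaled log2 axis, still lay above the highest NSD spot at 1.52.

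Tnfrsf1a encodes the TNF receptor with a death domain that nearly all cells carry, and its brighter probe was also printed in 10 spots. They ran from 10959.5 to 13296 intensity units with a median of 12364 on the NSD array, and from 10588 to 13773 with a median of 13169.7 on the HSD array, so the spots overlapped. The log2 difference was 0.18, or 1.13-fold. Its other probe, a single spot, read 602 and 763 intensity units, a log2 difference of 0.46. Both probes were higher in the HSD group and neither reached 1.5-fold.

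Tnfrsf1b encodes the second TNF receptor, which lacks a death domain and is carried mostly by leukocytes and endothelium. Its signal was 1621 intensity units under NSD and 1818 under HSD. The log2 difference of 0.28 was within 1.5-fold. The ligand Tnf thus differed by more than either of its receptors, by 1.03 against 0.18 and 0.28 on the log2 scale.

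**Figure D2:**
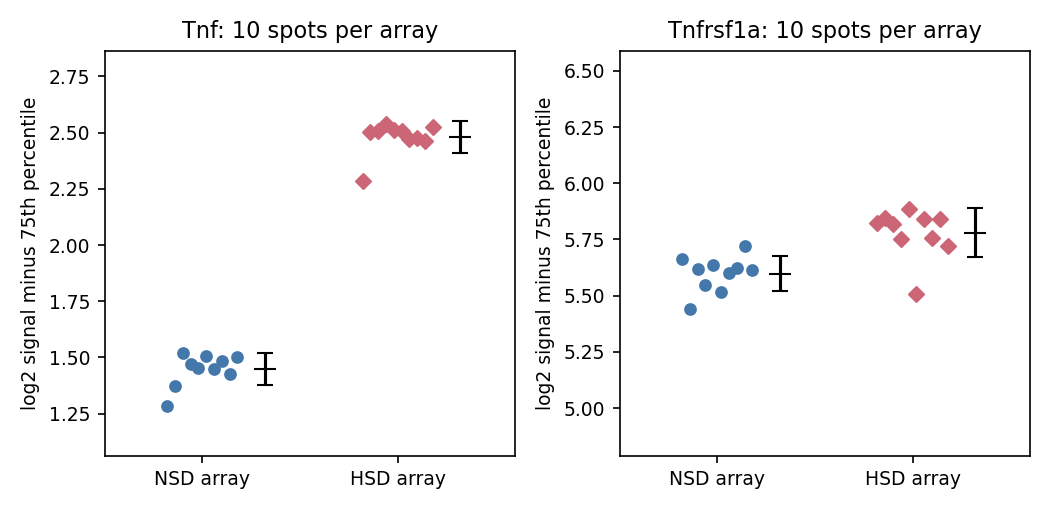
The 10 spots of the Tnf probe (left) and of the brighter Tnfrsf1a probe (right) on each array, as log2 signal minus the 75th percentile of the array; bars give the mean and SD over spots, which are repeat measurements of 1 RNA pool. The Tnf spots separate by array, from 1.28 to 1.52 on the NSD array against 2.29 to 2.54 on the HSD array, whereas those of Tnfrsf1a overlap.

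Fas, the receptor of Fas ligand and a classical inducer of cell death, differed by about as much as Tnfsf9, described next. Their order changed with quantile normalisation. The Fas probe, a single spot per array, read 2771 intensity units under NSD and 6362 under HSD. The log2 difference was 1.31, or 2.48-fold, with a noise SD of 0.087. With normexp background correction, explained below, it stayed at 1.31, whereas that of Tnfsf9, a dim probe, was 0.50. The ligand gene Fasl, read by 1 probe in a single spot, was dim, that is not well above background, on both arrays. No difference is given for it. The receptor gene was therefore measured in this pooled RNA, while the probe used gave no measurable level of the ligand gene.

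Tnfsf9 encodes 4-1BB ligand, a costimulatory ligand of T cells that antigen-presenting cells carry. Its signal was low, 19.4 intensity units under NSD and 41.9 under HSD. The log2 difference was 1.23, or 2.34-fold, with a noise SD of 0.20. With normexp background correction, which adds an offset and so shrinks differences of dim probes, it was 0.50 and no longer past 1.5-fold. Its receptor gene Tnfrsf9 (4-1BB) had probes that disagreed. The bright one read 1938 and 875 intensity units, a log2 difference of −1.03. The other read 12.0 under HSD and stayed below the background criterion under NSD, which made it at least 2.82-fold higher by the bound used here, although its log2 difference was 0.26 with normexp correction, within 1.5-fold.

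Tnfsf10 encodes TRAIL, a ligand of death receptors that interferon induces. It was dim and lower in the HSD group, with 36.1 intensity units under NSD and 15.3 under HSD. The log2 difference was −1.13, or 2.18-fold lower, with a noise SD of 0.20, and it was −0.30 with normexp correction. The gene of its mouse receptor, Tnfrsf10b, had signals of 307 and 359, a log2 difference of 0.34.

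Tnfsf14 encodes LIGHT, which binds the herpesvirus entry mediator (Tnfrsf14) and the lymphotoxin β receptor (Ltbr). It read 392 intensity units under NSD and 234 under HSD. The log2 difference was −0.63, or 1.55-fold lower, with a noise SD of 0.095, and it was −0.53 with normexp correction, within 1.5-fold. Neither receptor gene reached 1.5-fold. Ltbr read 5135 and 5703 intensity units, a log2 difference of 0.27, and the probes of Tnfrsf14 had log2 differences of 0.36 and 0.065.

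Ltb, whose product joins lymphotoxin α to form the membrane ligand of Ltbr, had nearly equal signals of 22881 intensity units under NSD and 22779 under HSD. The log2 difference of 0.11 was near its noise SD of 0.089 and was −0.027 after cyclic loess, so it has no settled direction. Lta, the gene of lymphotoxin α, was printed in 10 spots and had mean signals of 32.4 and 42.5, a log2 difference of 0.50, or 0.63 and past 1.5-fold with flagged spots kept.

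Tnfsf13b encodes BAFF, the survival factor of B cells that myeloid cells release. It read 217 intensity units under NSD and 255 under HSD, a log2 difference of 0.35, or 1.27-fold, with a noise SD of 0.098. The gene of the main BAFF receptor, Tnfrsf13c, had signals of 596 and 782 on its brighter probe, a log2 difference of 0.51, and 0.22 on its other probe. That of the receptor TACI, Tnfrsf13b, had a log2 difference of 0.084, and BCMA (Tnfrsf17) was dim on both arrays.

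Tnfsf12 encodes TWEAK, which acts on the receptor Fn14 (Tnfrsf12a). Its 2 probes disagreed. The brighter read 114 intensity units under NSD and 116 under HSD, a log2 difference of 0.14. The dimmer read 27.1 and 15.3, a log2 difference of −0.71, or 1.64-fold lower, and −0.11 with normexp correction, within 1.5-fold. Tnfrsf12a had a log2 difference of 0.43, from signals of 114 and 142. No direction can be given for Tnfsf12, and the median over its probes was −0.29.

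**Figure D3:**
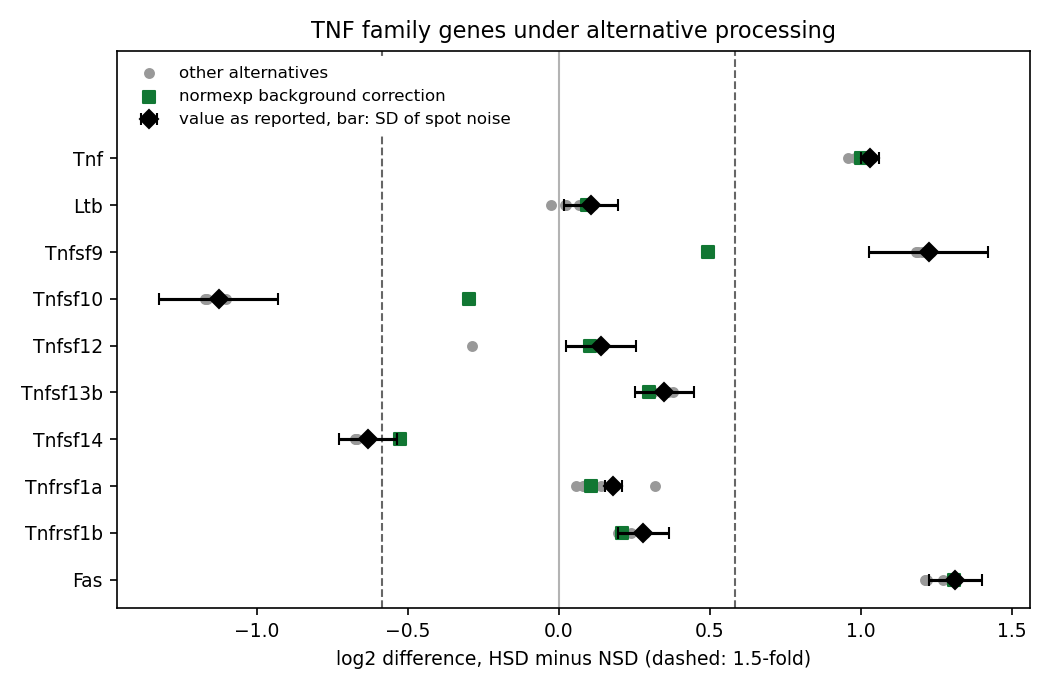
Log2 difference (HSD minus NSD) of the 10 genes as reported (diamonds, bar: SD of the spot noise), with normexp background correction (squares) and under the other alternatives (grey points); dashed lines mark 1.5-fold. Tnf and Fas stay past 1.5-fold under every setting shown, Tnfsf9, Tnfsf10 and Tnfsf14 cross inside it with normexp correction, and the isolated grey point of Tnfsf12 is the median over its probes.

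Over all the settings tried, the log2 difference of Tnf lay between 0.96 and 1.04 and that of Fas between 1.21 and 1.32. Tnfsf9 ranged from 0.50 to 1.23 and Tnfsf10 from −1.17 to −0.30, with the normexp value at the inner end of both. Tnfsf14 ranged from −0.68 to −0.53. Tnfsf13b, Tnfrsf1a and Tnfrsf1b were higher in the HSD group and within 1.5-fold in all of them.

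The rest of the family and the pathway was counted over lists written from general knowledge. Of the 10 other ligand genes with a named probe, 6 were well above background on at least 1 array, 1 was higher by the threshold and none lower. The higher one was Tnfsf4, the gene of OX40 ligand, which read 7.79 intensity units under HSD, was not well above background under NSD, and so was at least 1.83-fold higher by the bound used here. With normexp correction its log2 difference was 0.21 and no gene of the list passed the threshold. Among the ligands measured on both arrays, Eda had a log2 difference of 0.45, Tnfsf15 of −0.19 and Cd70 of −0.082. Cd40lg, Fasl, Tnfsf11 and Tnfsf18 were not well above background on either array. The median of the list was 0.18.

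Of the 25 other receptor genes, 23 were usable, 1 was higher by the threshold, 2 lower and 20 neither, with a median log2 difference of 0.084. The higher one was Tnfrsf26, a mouse gene of the TRAIL receptor cluster, with signals of 201 and 437 and a log2 difference of 1.23. The lower ones were Tnfrsf9, described above, and Eda2r, a receptor of an ectodysplasin form, which read 7.51 intensity units under NSD, was not well above background under HSD, and so was at least 1.58-fold lower by the bound used here, against a log2 difference of −0.057 with normexp correction. A further Eda2r probe was dim on both arrays. Relt, another receptor of the family, had a log2 difference of −0.44.

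All 27 genes of receptor-proximal signalling were usable, of which 4 passed the threshold upward, 2 downward and 21 not at all, with a median of 0.10. The higher ones were Cyld, a deubiquitinase that restrains NF-κB (21.2 and 49.0 intensity units, log2 difference 1.32), Birc3, which encodes the ubiquitin ligase cIAP2 (log2 difference 0.66), Cflar, the gene of the caspase-8 inhibitor c-FLIP (0.62 on its brightest probe and 0.35 and 0.15 on the others), and Ripk1, the gene of the kinase at the TNF receptor (0.60). The lower ones were Mlkl, the effector of necroptosis (56.2 and 27.5 intensity units, log2 difference −0.92), and Casp8, the initiator caspase of death receptors (309.7 and 190.5, log2 difference −0.59). Ripk1, Cflar and Casp8 lay so close to 1.5-fold that they were within it under several settings, and Cyld and Mlkl were within it after normexp correction, with log2 differences of 0.51 and −0.29. Birc3 stayed past it, between 0.59 and 0.66.

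Of 11 genes that control the Tnf messenger or the release of the protein, 1 passed the threshold upward and 1 downward, with a median of 0.32 and 9 genes above 0. The lower one was Timp3, the inhibitor of the TNF-releasing protease ADAM17 (34.7 and 13.0 intensity units, log2 difference −1.30, or −0.36 with normexp correction). The higher one was Tia1, an RNA-binding repressor of translation, with a log2 difference of 0.59 on its brighter probe and −0.32 on its other. It was within 1.5-fold with normexp correction, at 0.34, with cyclic loess and with the 75th percentile over probes well above background on both arrays. Zfp36l1, of the family that marks AU-rich messengers for decay, had a log2 difference of 0.56, or 0.60 and past 1.5-fold with normexp correction, and the shedding protease gene Adam10 one of −0.079. The probes of Adam17 had log2 differences of 0.47 and 0.44.

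Among 8 genes of TNF-induced proteins and their partners, Tnfaip6 alone reached 1.5-fold. It encodes TSG-6, a hyaluronan-binding protein of inflamed tissue, and all 3 of its probes were higher in the HSD group, with log2 differences of 0.95, 1.09 and 1.31. The last value came from a dim probe and was 0.46 with normexp correction, within 1.5-fold. Tnip2 had a log2 difference of 0.47 and Tnfaip1 of −0.11, and the median of the list was 0.31. In these lists, dimmer probes of Tnfrsf19, Elavl1 and Litaf passed 1.5-fold upward, with log2 differences of 0.88, 0.61 and 0.62, while the brightest probe of each did not. With normexp correction these dimmer probes were at 0.24, 0.34 and 0.40, within 1.5-fold. The lists are described by these counts and medians alone, beside the background shares given above.

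**Figure D4:**
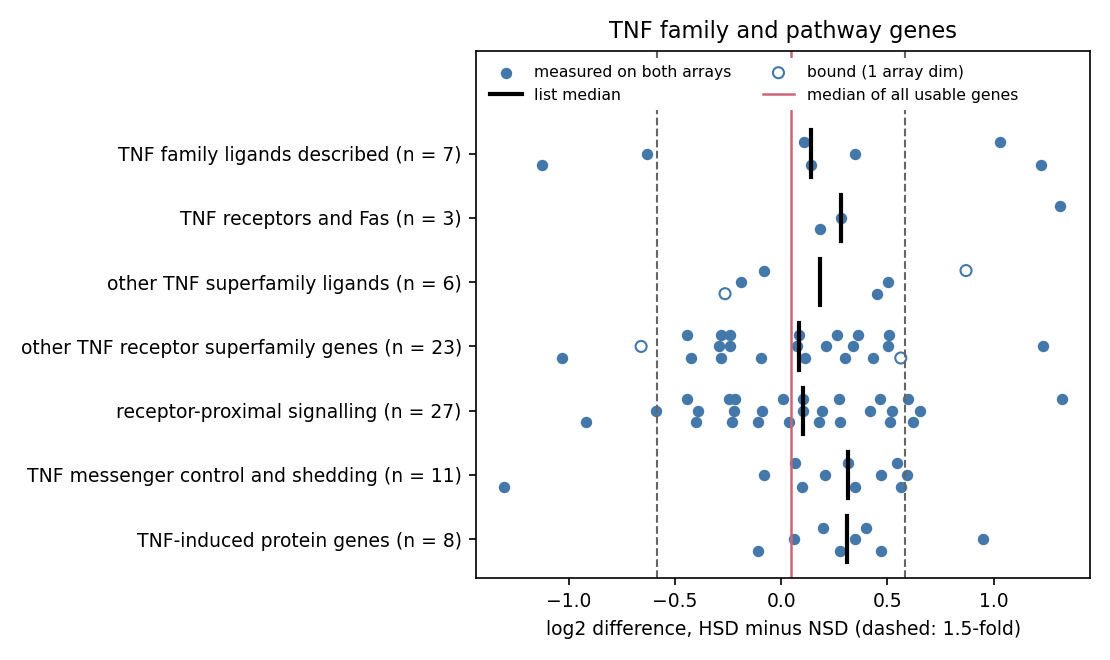
Log2 difference (HSD minus NSD) of each usable gene in the described ligands and receptors and in the 5 lists of family and pathway genes, 1 point per gene from its brightest probe; open circles are bounds, black bars are list medians, the red line is the median of all usable genes and dashed lines mark 1.5-fold. List medians lie between 0.084 and 0.32, and most points fall inside the dashed lines.

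Markers of cell types were measured in the same RNA. All 6 named monocyte markers were well above background on both arrays, among them Itgam, the gene of CD11b, with 31564 intensity units under NSD and 31043 under HSD. Cd14 and Cx3cr1 were at least 1.5-fold higher under HSD and Ccr2 and Fcgr1 at least 1.5-fold lower, with a log2 difference of −3.68 for Fcgr1. Their summed signal before scaling was 45927 intensity units under NSD and 43309 under HSD, a log2 difference of 0.030 after scaling. Itgam gave most of both sums, so they say little about the other markers. CD11b is also carried by granulocytic suppressor cells, so Itgam does not single out monocytes. The other sums below are also before scaling, and each is set mostly by its brightest probes. Ly6c2 and Ly6g were not analysed here. The 7 named neutrophil markers were also well above background on both arrays, with sums of 208639 and 199711, a log2 difference of 0.051 after scaling, and 1 of them, Mpo, was lower. The 4 B cell markers reported, Cd79a, Cd79b, Ms4a1 and Pax5, were well above background on both arrays as well, with sums of 5316 and 6142, and none passed 1.5-fold.

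Of 7 macrophage markers, 5 passed the threshold downward and none upward, and the sum of all 7 was 14188 intensity units under NSD and 8678 under HSD, a log2 difference of −0.60 after scaling. One of the 5, C1qa, was a bound and had a log2 difference of −0.070 with normexp correction. Mrc1 had signals of 134 and 5.49 and Mertk of 95.9 and 15.4. Of the 9 named T and NK cell markers, 8 were usable and 2 were lower, Cd3e and Il7r, with a sum of 3470.0 and 3183, and Ncr1 was dim on both arrays. By the threshold, 1 of 5 dendritic cell markers and 3 of 5 carcinoma markers were higher, 2 of 4 fibroblast markers were lower, and none of 5 endothelial markers was either on its brightest probe. All 6 of these calls were of dim probes and were lost with normexp correction. The other probe of the endothelial marker Kdr, printed in 10 spots, read 124 and 20.4, a log2 difference of −2.49, against 0.28 on the brighter probe. The sums were 14542 and 13983 for dendritic cells (a log2 difference of 0.058 after scaling), 108 and 113 for carcinoma cells, 141 and 108 for fibroblasts and 498 and 514 for endothelial cells. Siglech gave most of the dendritic cell sums, with 13705 under NSD and 13214 under HSD. Xcr1 and Pdgfra were not well above background on either array. Macrophages, neutrophils, lymphocytes and dendritic cells also express genes of this family. In pooled RNA, fewer cells of a type and less RNA per cell cannot be told apart. The part of these cells in the differences of Tnfsf10, Tnfsf14, Tnf, Tnfsf9 and Fas was not tested.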

How the data were processed

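Each diet had 1 array, an Agilent Mouse GE v2 array (4 × 44 k format), hybridised with pooled RNA of tumour M-MDSCs. Per the file headers, Feature Extraction 11.0.1.1 (protocol GE1_1100_Jul11) made the deposited processed signal, an intensity corrected for background and spatial trend and not normalised between arrays. The median spot and local background intensities deposited by the authors served for an alternative. The authors also deposited log2 values made with GeneSpring. Their sorted columns differed by at most 0.052 and 99.7% of the sorted pairs lay within 0.001, which is the pattern of quantile normalisation, although the method is not named in the sources used here. They were used as an alternative. No per-sample column was left unused.

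Control spots were left out, as were 162 flagged NSD spots and 179 flagged HSD spots. The mean log2 signal of a probe's spots was set against its array's 75th percentile (252 intensity units for NSD and 233 for HSD). A printed signal is the mean before this scaling. A probe was well above background when at least 50% of its spots were, which held for 28330 NSD and 28534 HSD probes. Where 1 array failed this, the difference was a bound against the higher of the probe's signal and the lowest signal well above background there. A gene was represented by its probe with the highest mean log2 signal. RefSeq transcripts of GRCm38.p6 gave a gene name to 27234 of the 39429 probes. The array was designed on an older build, so no probe coordinates are given.

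The noise SD of a difference came from the 50 repeated probes nearest in signal, out of 289, divided by the root of the number of spots. The number of arrays limits the precision. No test was run. The 1.5-fold step was checked on simulated data with planted changes larger than 1.5-fold and equal noise for all probes. That check does not cover values near the threshold or dim probes. The genes and lists were chosen with earlier results of these data known, and support nothing by themselves. Named were all 10 family genes, list genes past 1.5-fold, the 2 largest differences each way per list among probes well above background on both arrays, and markers. The receptor partners of the ligands, Lta, Fasl and Adam17, and genes whose other probes disagreed were added after their values were seen. One B cell marker of the lists is not reported here. The alternatives numbered 11. Python 3.11.15, numpy 2.4.6, pandas 2.3.3, matplotlib 3.10.9, R 4.3.3 and limma 3.58.1 were used.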

Additional observations from a re-analysis of the deposited data

How the results depend on the processing

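Of the 10 genes, 3 were at least 1.5-fold higher and 2 lower. The count of lower genes changed under the normexp background correction, to 0, and at a 2-fold threshold, to 1, where Tnfsf10 remained, and the count of higher genes stayed between 2 and 3. Among all genes, 1608 were higher and 1682 lower, which became 622 and 657 with normexp correction, 428 and 681 at 2-fold, and 2903 higher without a filter on dim probes. For probes, the counts of 3030 higher and 2639 lower became 967 and 925 with normexp correction, 793 and 1039 at 2-fold, and 6010 higher without a filter. Counts in the lists moved by small numbers. Signalling genes numbered 4 higher and 2 lower, and 2 higher with normexp correction, with quantile normalisation, with the 75th percentile over probes well above background on both arrays and with cyclic loess, or 1 at 2-fold; the lower count was 1 with quantile normalisation or scaling on the median and 0 with normexp correction or at 2-fold. The other lists gave between 0 and 2 genes in each direction under every alternative. Of the log2 differences of single genes, 82 of 100 values under alternatives moved by no more than the noise SD. That count includes the filters on dim probes and the keeping of flagged spots. These could hardly move genes whose probes were all well above background and unflagged. It also includes the median over probes, which is fixed for a gene with a single probe. Normexp correction moved Tnf, Tnfsf9, Tnfsf10, Tnfsf14 and Tnfrsf1a by more than the noise SD. None of the 5 genes past 1.5-fold changed direction. Another scaling moved the median of all genes by at most 0.069. The dim signals of Tnfsf9 and Tnfsf10 limit their values, which became 0.50 and −0.30 with normexp correction.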
